A study of Mus musculus with 19 samples.

Results

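The 10 genes described here carry signals from Toll-like and interleukin 1 receptors towards NF-kB: the adaptors Myd88, Tirap and Ticam1, the kinases Irak1, Irak2 and Irak4, the related brake Irak3, the ubiquitin ligase Traf6, and Map3k7 with its partner Tab2. They were chosen by symbol, as the receptor-proximal core of the pathway in which Irak1, Irak2 and Traf6 are reported targets of the microRNA miR-146a, and all 10 were found among the 55487 genes listed for each library. RNA was measured in 9 mouse spinal cord libraries labelled miR-146a knockout and 4 labelled miR-146a wild type, and in motor neuron cultures, 3 transfected with an anti-miR-146a locked nucleic acid (miR-146a LNA) and 3 with a control LNA. Such an LNA is a short modified oligonucleotide that pairs with a microRNA and inhibits it. The cultured neurons were made from RW.4, a single wild-type mouse embryonic stem cell line, with retinoic acid and the Smoothened agonist SAG, and both LNAs were given at 10 nM for 72 h with Lipofectamine 2000. The labels give the cords by genotype alone, without allele, age or sex, and no label states whether each library is its own animal or culture, so the p-values measure the spread between these libraries.

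Toll-like receptors sense microbial and damage-derived molecules and interleukin 1 receptors sense a cytokine, and both kinds gather Myd88 at the membrane. Myd88 recruits Irak4, which activates Irak1 and Irak2, and these pass the signal to Traf6, whose ubiquitin chains are bound by Tab2 and so bring in the kinase Map3k7 (TAK1), which in turn activates the kinases that release NF-kB and the MAP kinases. In the spinal cord, microglia are the cells best known for this pathway, while astrocytes and neurons carry some of its receptors. miR-146a is induced by NF-kB and is known as a brake on it, so a loss of the microRNA is a test of whether the RNA of its targets is released.

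The mature sequences are given because every site below is read against their seed, bases 2 to 8, in capitals. Both miR-146 microRNAs have the same seed, and 20 of their 22 bases are identical, so a site matched by one is matched by the other. The sequences are from RefSeq (GRCm38.p6), with miR-146a-5p at chr11:43374435-43374456 on the minus strand and miR-146b-5p at chr19:46342790-46342811 on the plus strand.
miR-146a-5p: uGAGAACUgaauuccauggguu
miR-146b-5p: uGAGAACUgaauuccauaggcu

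Sites were searched as AGTTCTCA (8mer), AGTTCTC (7mer-m8) and GTTCTCA (7mer-A1) on the transcribed strand of 3′ UTRs annotated in GENCODE M21 (GRCm38), with a 7mer inside an 8mer counted once. Traf6, Irak1, Irak2 and Tirap held sites, and Irak3, Irak4, Myd88, Ticam1, Tab2 and Map3k7 held none. A site of any class was present in 19.2% of the 21021 genes with an annotated 3′ UTR and an 8mer in 4.40%. Traf6 had 4 sites in a 3′ UTR of 4170 bases, all of them 8mers. Irak1 had 2 8mers and a 7mer-A1 in 1526 bases, and its 8mers began at bases 40 and 56 after the stop codon. Irak2 had 1 8mer, 1 7mer-m8 and 1 7mer-A1 in 1246 bases. Tirap had 2 7mer-m8 and 1 7mer-A1 in 3360 bases and no 8mer. The 8mers are shown with their flanks because they are the strongest matches in the reported targets, and the site is in capitals. A match is a description of letters and was not tested for binding. On GRCm38 the gene of Irak1 spans chrX:74013914-74023918 (minus strand), that of Irak2 chr6:113638467-113695026 (plus), that of Traf6 chr2:101678429-101701669 (plus) and that of Tirap chr9:35184551-35200291 (minus).
Irak1, chrX:74015393-74015400: gactcagaggtcaaAGTTCTCAtg
Irak1, chrX:74015377-74015384: ttctcatgcttggaAGTTCTCAta
Irak2, chr6:113694266-113694273: ccggtgtctccgcaAGTTCTCAag
Traf6, chr2:101697959-101697966: ccgctctggtgttgAGTTCTCAtt
Traf6, chr2:101698023-101698030: ccctggaaggcttaAGTTCTCAag
Traf6, chr2:101698835-101698842: gtactttggagtctAGTTCTCAgg
Traf6, chr2:101701359-101701366: gactttgctactgcAGTTCTCAaa

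**Figure D1:**
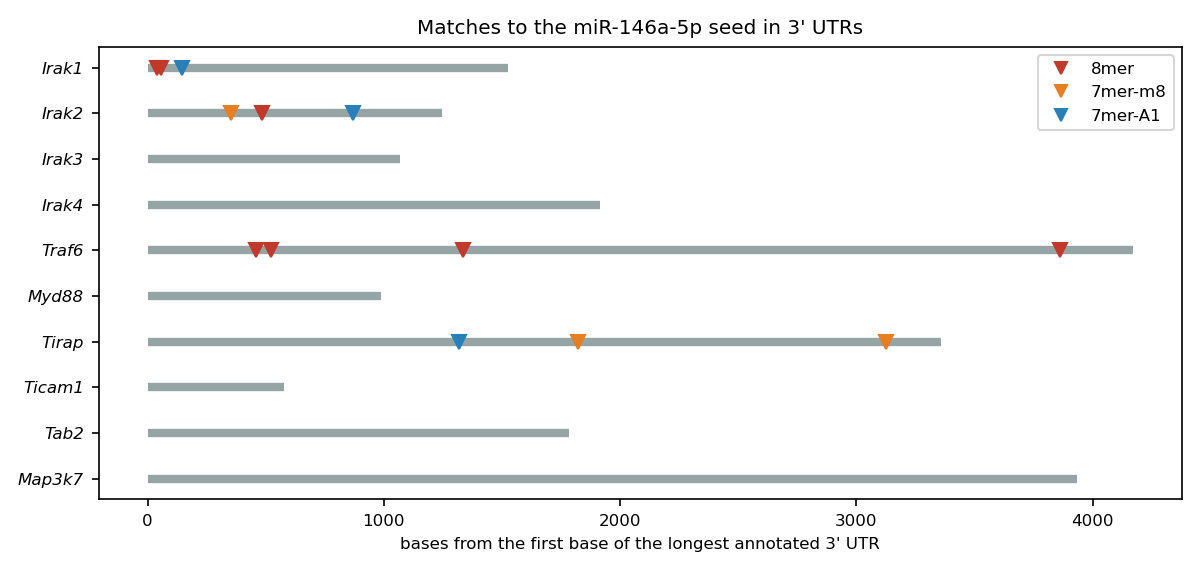
Longest annotated 3′ UTR of each gene (grey bar, in bases from its first base) with matches to the miR-146a-5p seed as triangles coloured by class. The 4 genes with sites are Irak1, Irak2, Traf6 and Tirap, and the 6 others have bars without triangles.

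Cord libraries held 28163289 to 39577247 counts and culture libraries 40647549 to 65471742, so no member was near the limit of detection, the lowest count being 41, for Irak3 in a control LNA culture. The miR-146a precursor had 1 count over all 19 libraries and so does not check the labels. Its neighbour Pttg1 had 1.06 to 1.81 normalised CPM (counts relative to library size, scaled between libraries) in knockout replicates 1 to 8, against 14.9 to 17.4 in wild-type cords, but 13.04 in the library labelled knockout replicate 9, which on this neighbour goes with the wild-type libraries. Knockout replicate 7 stands apart through skeletal muscle transcripts, whose 8 listed genes summed to 5349 CPM there, against 5.01 to 16.6 CPM in the other cords. Estimates in cords are therefore also given without both libraries. The labelled cell types were checked by defining markers. Motor neuron genes, among them Chat and Mnx1, were read in every culture and summed to 9471 to 9955 CPM with miR-146a LNA and 8733 to 9338 CPM with control LNA. Of these 10 genes, 7 had positive estimates and edgeR called 3, where it called 8.56% of all genes. General neuron genes summed to 5217 to 5449 CPM with miR-146a LNA and 5518 to 5634 CPM with control LNA. Astrocyte genes summed to 44.65 to 49.2 and 52.58 to 54.74 CPM. The part of these differences in the members' culture values was not tested. Of the 15 microglia and macrophage genes, 2 passed the filter on low counts in the cultures. Csf1r averaged 0.325 CPM with miR-146a LNA and 0.387 CPM with control LNA, and C1qa and Siglech had no count in any culture.

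In cords, none of the 10 genes passed the test between knockout and wild type. All 10 estimates were positive, from 0.06 for Tab2 to 1.07 for Irak3 on the log2 scale, with a median of 0.17, against a median of 0.02 over the 22174 genes tested, of which 53.1% were positive. edgeR's quasi-likelihood test with Benjamini-Hochberg adjustment called none of the 10 and none of all genes (0.00%), with adjusted p-values of 0.292 to 0.820 for the 10. It did not call Pttg1 either, whose log2 fold change was -2.57 (edgeR adjusted p = 0.292, DESeq2 2.48e-13, limma 9.24e-09). A gene left uncalled by edgeR in cords is therefore not shown to be unchanged. At an unadjusted p below 0.05 stood 2 of the 10, Irak3 and Irak4, both higher in knockout cords, where 14.3% of all genes passed and 7.53% were higher. DESeq2 called none of the 10 and 1.72% of all genes, and limma called none of the 10 and 0.0135% of all genes (3). No member had knockout and wild-type libraries without overlap, which 1.30% of all genes did. Without the libraries labelled knockout replicates 7 and 9, the same 2 members stood at an unadjusted p below 0.05, both higher. Of the 21573 genes tested there, 1929 were higher and 1297 lower at that level. edgeR called none of the 10, and 8 of all genes (0.0371%). All 10 estimates were positive with a median of 0.14, against 0.01 over all genes. In that fit the log2 fold change was 0.10 for Irak1, 0.16 for Irak2, 0.76 for Irak3, 0.66 for Irak4, 0.08 for Traf6, 0.30 for Myd88, 0.20 for Tirap, 0.12 for Ticam1, 0.03 for Tab2 and 0.024 for Map3k7. With 2 surrogate variables estimated from all genes, 6 of the 10 estimates turned negative (-0.013 to -0.12), and Irak3 and Irak4 stood at 0.29 and 0.31.

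Among the adaptors, Myd88, which serves nearly all Toll-like receptors and the interleukin 1 receptor family, showed the widest range. It had a lowest value of 4.67, a median of 6.77 and a highest value of 16.8 normalised CPM across knockout cords, against 5.31, 6.13, 5.98 and 5.58 across wild-type cords. Knockout libraries above every wild-type library numbered 8 of 9 and 1 lay below. Replicates 6 and 9 were above only narrowly, at 6.13 and 6.16 against a highest wild-type value of 6.129. The log2 fold change was 0.48 ± 0.27 (SE, edgeR adjusted p = 0.414), and it was 0.27 without knockout replicate 7. Tirap, the adaptor that bridges Myd88 to Toll-like receptors at the plasma membrane, had 4.51, 4.98 and 8.54 normalised CPM as lowest, median and highest across knockout cords, against 4.26, 4.85, 4.15 and 4.84 across wild-type cords, a log2 fold change of 0.27 ± 0.16 (SE, edgeR adjusted p = 0.445) that was 0.18 without knockout replicate 7. Ticam1 (TRIF), the adaptor of Tlr3 and of the Myd88-independent branch of Tlr4, had 9.32, 11.9 and 18.1 normalised CPM across knockout cords, against 11.3, 11.4, 11.6 and 10.5 across wild-type cords. Its knockout libraries lay on both sides of the wild-type range, 5 above and 2 below, with a log2 fold change of 0.18 ± 0.15 (SE, edgeR adjusted p = 0.585), and 0.11 without knockout replicate 7.

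Irak4, the kinase that binds Myd88 and starts the cascade, had the smallest p of the 10. It had 4.98, 6.63 and 15.8 normalised CPM as lowest, median and highest across knockout cords, against 3.98, 5.56, 4.44 and 4.10 across wild-type cords, and averaged 7.98 ± 3.31 (SD, n = 9) and 4.52 ± 0.72 (SD, n = 4). Every knockout library but replicate 2 lay above every wild-type library. The log2 fold change was 0.82, with a 95% interval of 0.25 to 1.39 (edgeR, unadjusted p = 0.00803, adjusted p = 0.292). DESeq2 gave an adjusted p of 0.0673 and limma 0.0973. Without both libraries that stand apart the log2 fold change was 0.66 (edgeR adjusted p = 0.148).

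Irak3 (IRAK-M), which lacks kinase activity, is expressed mainly in myeloid cells and restrains the release of Irak1 and Irak4 from the receptor complex. It had 2.32, 4.41 and 15.2 normalised CPM as lowest, median and highest across knockout cords, against 2.42, 2.78, 2.17 and 2.69 across wild-type cords, and averaged 5.29 ± 3.88 (SD, n = 9) and 2.52 ± 0.28 (SD, n = 4). Again replicate 2 alone among the knockout libraries was not above every wild-type library, and replicate 7, at 15.2, stood well above the next highest, replicate 6, at 5.78. The log2 fold change was 1.07, with a 95% interval of 0.14 to 2.00 (edgeR, unadjusted p = 0.0272, adjusted p = 0.311), and it was 0.70 without replicate 7 and 0.76 without replicates 7 and 9. The coefficient of variation among knockout cords was 73.3% for Irak3, 44.4% for Myd88 and 41.4% for Irak4, against 7.51% for Map3k7.

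The reported targets Irak1, Irak2 and Traf6 had small estimates in cords. Irak1, with its 2 8mers next to the stop codon, had 41.1, 49.0 and 60.7 normalised CPM as lowest, median and highest across knockout cords, against 45.4, 46.2, 46.6 and 43.0 across wild-type cords. Its knockout libraries ran from below to above the wild-type range, and the fold change was 1.09, with a 95% interval of 0.968 to 1.23 (edgeR adjusted p = 0.470). Irak2, the kinase that sustains late signalling, had 21.97, 26.1 and 32.1 normalised CPM across knockout cords, against 23.2, 26.0, 20.8 and 24.9 across wild-type cords, a fold change of 1.11 with an interval of 0.961 to 1.29 (edgeR adjusted p = 0.473). It was the only one of the 10 whose highest value was not in knockout replicate 7 but in replicate 4. Traf6, with 4 8mers, had 25.8, 29.0 and 36.6 normalised CPM across knockout cords, against 29.7, 28.1, 29.3 and 24.0 across wild-type cords, where 4 of 9 knockout libraries lay above every wild-type library. The fold change was 1.08 with an interval of 0.949 to 1.23 (edgeR adjusted p = 0.554). These intervals are from the fit with all cord libraries, where the upper end was highest for Irak2, at 1.29. Without the library labelled knockout replicate 9 the Irak2 log2 fold change was 0.18, against 0.16 with it. Intervals are given for the full fit only, so they set no firm upper limit on an increase.

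Downstream of Traf6, Tab2 had 52.5, 65.6 and 86.0 normalised CPM as lowest, median and highest across knockout cords, against 62.3, 66.0, 63.8 and 61.8 across wild-type cords. Its knockout libraries spread to both sides of a narrow wild-type range, with a log2 fold change of 0.06 ± 0.10 (SE, edgeR adjusted p = 0.820). Map3k7 had 54.3, 57.5 and 66.9 normalised CPM across knockout cords, against 56.7, 61.1, 54.8 and 53.0 across wild-type cords, a log2 fold change of 0.06 ± 0.06 (SE, edgeR adjusted p = 0.682). Knockout replicate 7 held the highest value for 9 of the 10 members, where it did so for 20.8% of all tested genes.

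**Figure D2:**
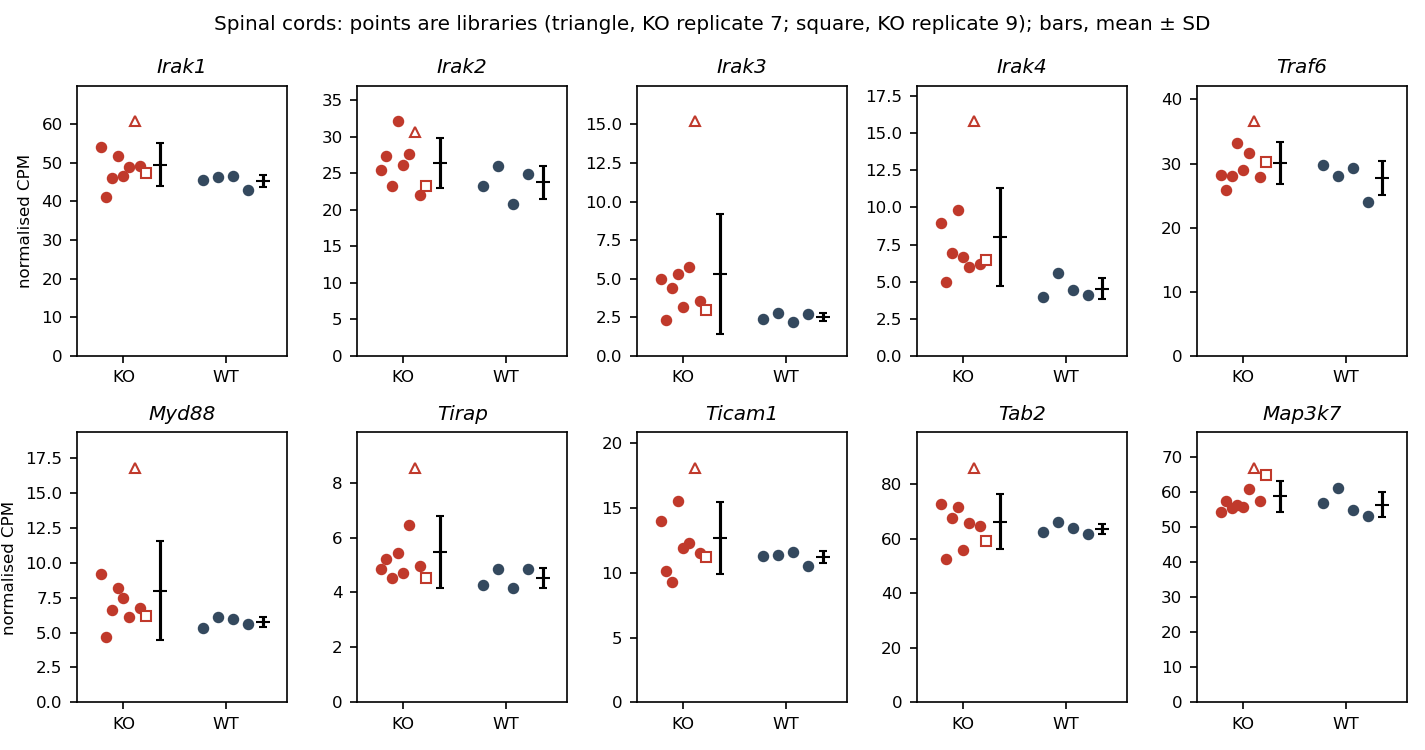
Normalised CPM of each gene in knockout (KO, left) and wild-type (WT, right) spinal cord libraries, 1 point per library, with mean and SD (n = 9 and 4). Knockout replicate 7 (open triangle) is the highest point in 9 of 10 panels, and the groups overlap in all 10.

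The level of microglia moved with several of these genes. The 15 microglia and macrophage markers summed to a lowest value of 409, a median of 843 and a highest value of 2159 CPM across knockout cords, against 463 to 523 CPM in wild-type cords, and 15 of 15 had positive estimates (12 at an unadjusted p below 0.05, none called by edgeR). In bulk tissue a change in the number of cells and a change in RNA per cell cannot be told apart. Across the 9 knockout cords the correlation of log2 levels with the log2 marker sum was high for Irak1 (Pearson r = 0.906, Spearman rho = 0.900), Tab2 (0.902, 0.917), Ticam1 (0.874, 0.867), Irak4 (0.851, 0.733), Irak3 (0.830, 0.933) and Myd88 (0.808, 0.767). Without the libraries farthest from the median of the marker sum, replicates 4 and 7, r was 0.925 for Irak1, 0.878 for Tab2, 0.742 for Ticam1, 0.803 for Irak4, 0.866 for Irak3 and 0.835 for Myd88 (n = 7). The other 4 were looser: r was 0.735 for Traf6, 0.569 for Irak2, 0.558 for Tirap and 0.075 for Map3k7, and without the same libraries 0.386, 0.001, 0.207 and -0.375. These are descriptions over libraries that share their depth and composition. Knockout replicate 2, the knockout library with the lowest Irak1, Irak3, Irak4, Traf6, Myd88 and Tab2, also had the lowest marker sum (409 CPM). Other marker lists were summed as well, and of these only the astrocyte and neuron sums were correlated with the members. The 12 activated microglia genes summed to 1853 to 7070 CPM in knockout cords and 1876 to 2139 CPM in wild-type cords, with 12 of 12 estimates positive and a median log2 fold change of 2.95. Astrocyte markers summed to 7113 to 12650 CPM in knockout cords and 7030 to 8575 CPM in wild-type cords. Of the 9 astrocyte genes, 6 had positive and 3 negative estimates, with a median log2 fold change of 0.15. At an unadjusted p below 0.05 stood 2 of them. Over the 9 knockout cords the astrocyte sum had an r of 0.929 with Irak1, 0.877 with Ticam1, 0.876 with Tab2, 0.865 with Irak4, 0.827 with Irak3, 0.824 with Myd88, 0.779 with Traf6, 0.569 with Tirap, 0.511 with Irak2 and 0.322 with Map3k7. Without replicates 2 and 7 these were 0.876, 0.787, 0.700, 0.751, 0.643, 0.636, 0.444, 0.346, 0.599 and -0.136, in the same order of genes (n = 7). The neuron list summed to 4101 to 4754 CPM in knockout cords and 4640 to 4906 CPM in wild-type cords, and its r was negative for all 10 genes, from -0.342 for Irak2 to -0.777 for Traf6 (n = 9). Without replicates 7 and 9 it ran from -0.796 for Tab2 to 0.084 for Map3k7. The motor neuron list summed to 3408 to 4459 CPM in knockout cords and 4128 to 5447 CPM in wild-type cords, with 8 of 10 estimates negative and 5 at an unadjusted p below 0.05. The red blood cell list summed to 38.2 to 674 CPM in knockout cords and 22.8 to 44.6 CPM in wild-type cords, with 6 of 6 tested genes positive at an unadjusted p below 0.05. The neutrophil and monocyte list summed to 7.98 to 111 CPM in knockout cords and 9.96 to 11.2 CPM in wild-type cords. The part of these cell types in the levels of the 10 genes was not tested.

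**Figure D3:**
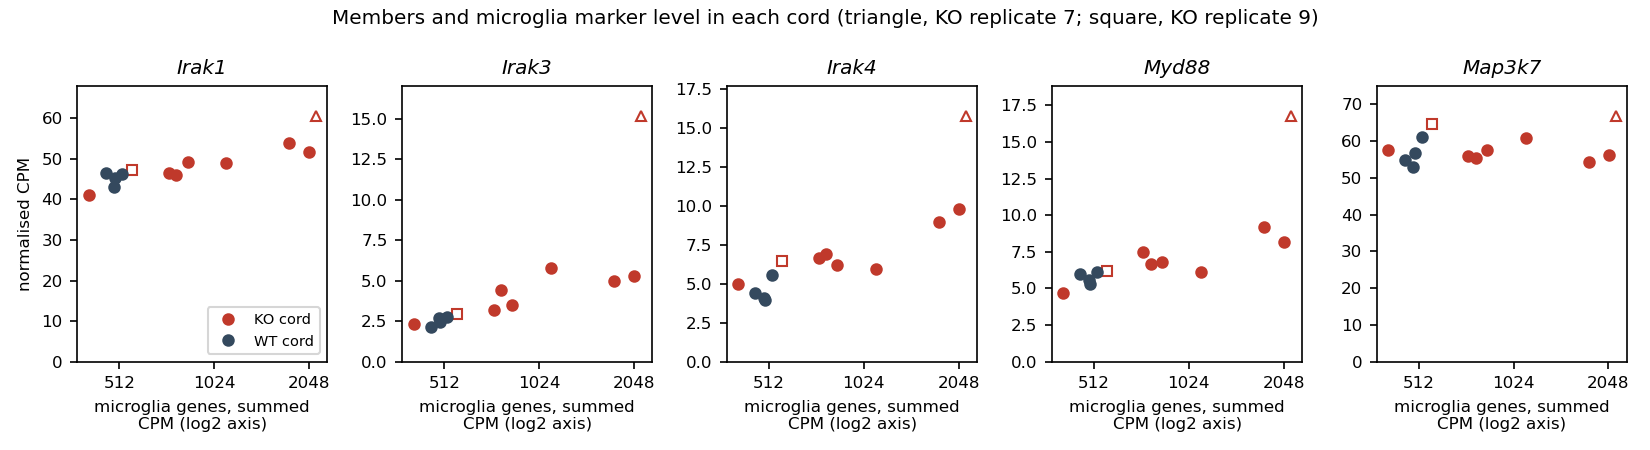
Normalised CPM of 5 members (vertical axis) against the summed CPM of 15 microglia genes (horizontal, log2 axis) in each cord library. Over the 9 knockout cords Irak1, Irak3, Irak4 and Myd88 rise with the marker sum (r = 0.906, 0.830, 0.851 and 0.808). Map3k7 is also highest in replicate 7, which has the highest marker sum, but has an r of 0.075.

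In the motor neuron cultures the members went in both directions: 5 estimates were positive and 5 negative, from -0.33 for Irak4 to 0.92 for Irak3, with a median of 0.04, against 0.01 over all 19099 genes tested. edgeR called none of the 10 at an adjusted p below 0.05, where it called 8.56% of all genes (2.40% higher, 6.16% lower). Irak3 and Myd88 lay just above the threshold, and both DESeq2 and limma called Irak3, Myd88 and Tirap higher with miR-146a LNA, where DESeq2 called 11.4% of all genes (3.92% higher) and limma 11.8% (4.10% higher). At an unadjusted p below 0.05 stood the same 3 genes, all higher, where 22.9% of all genes passed and 9.81% were higher. Groups did not overlap for 7 members, 4 above (Irak1, Irak3, Myd88, Tirap) and 3 below (Irak4, Tab2, Map3k7), where 28.0% of all genes were separated (12.8% above, 15.1% below).

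Myd88 had 6.33, 5.76 and 5.51 normalised CPM with miR-146a LNA, against 4.76, 3.33 and 3.86 with control LNA. All 3 treated cultures were above all 3 controls. The log2 fold change was 0.56 ± 0.17 (SE), with an adjusted p of 0.0514 by edgeR, 0.0147 by DESeq2 and 0.0138 by limma. Tirap, which has 3 7mer sites, had 20.2, 19.5 and 16.3 normalised CPM with miR-146a LNA, against 15.1, 14.5 and 16.1 with control LNA, so the groups were separated only narrowly. Its log2 fold change was 0.29 ± 0.10 (SE), with an adjusted p of 0.0847 by edgeR, 0.0452 by DESeq2 and 0.0162 by limma. Ticam1 had 5.72, 4.55 and 4.71 normalised CPM with miR-146a LNA, against 4.71, 3.88 and 3.30 with control LNA, a log2 fold change of 0.33 ± 0.18 (SE, edgeR adjusted p = 0.298) with overlapping groups.

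Irak3 was low in the cultures and had the largest estimate of the 10. It had 1.97, 1.75 and 1.53 normalised CPM with miR-146a LNA (81, 116 and 95 counts), against 0.808, 0.751 and 1.21 with control LNA (48, 41 and 63 counts). The groups did not overlap, and the fold change was 1.90 with a 95% interval of 1.26 to 2.86. The adjusted p was 0.0510 by edgeR, 0.0258 by DESeq2 and 0.0155 by limma. Irak4 had 1.66, 1.88 and 1.499 normalised CPM with miR-146a LNA, against 1.88, 2.22 and 2.23 with control LNA, a log2 fold change of -0.33 ± 0.23 (SE, edgeR adjusted p = 0.431). Its highest treated culture, at 1.875, was barely below its lowest control, at 1.884.

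The reported targets again differed little. Irak1 had 37.0, 36.8 and 35.1 normalised CPM with miR-146a LNA, against 32.9, 33.3 and 33.1 with control LNA. All treated cultures lay above all controls, with a fold change of 1.10 and a 95% interval of 0.992 to 1.21 (edgeR adjusted p = 0.264, DESeq2 0.211, limma 0.176). Irak2 had 3.48, 2.98 and 3.48 normalised CPM with miR-146a LNA, against 4.46, 2.73 and 3.78 with control LNA, a fold change of 0.905 with an interval of 0.671 to 1.22 (edgeR adjusted p = 0.728). The sign of the Irak2 estimate rests on control replicate 1: without it the log2 fold change was 0.02, against -0.14 with it. Traf6 had 44.5, 47.7 and 45.1 normalised CPM with miR-146a LNA, against 42.7, 49.5 and 50.2 with control LNA. The groups overlapped, and the fold change was 0.965 with an interval of 0.866 to 1.07 (edgeR adjusted p = 0.729).

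Tab2 had 15.2, 13.6 and 15.02 normalised CPM with miR-146a LNA, against 17.3, 15.5 and 15.8 with control LNA, a log2 fold change of -0.15 ± 0.10 (SE, edgeR adjusted p = 0.383). Map3k7 had 53.5, 51.6 and 51.5 normalised CPM with miR-146a LNA, against 53.6, 56.5 and 55.8 with control LNA, a log2 fold change of -0.08 ± 0.06 (SE, edgeR adjusted p = 0.463). Both genes were lower in every treated culture than in every control, for Map3k7 by a margin within rounding (53.54 and 53.55).

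**Figure D4:**
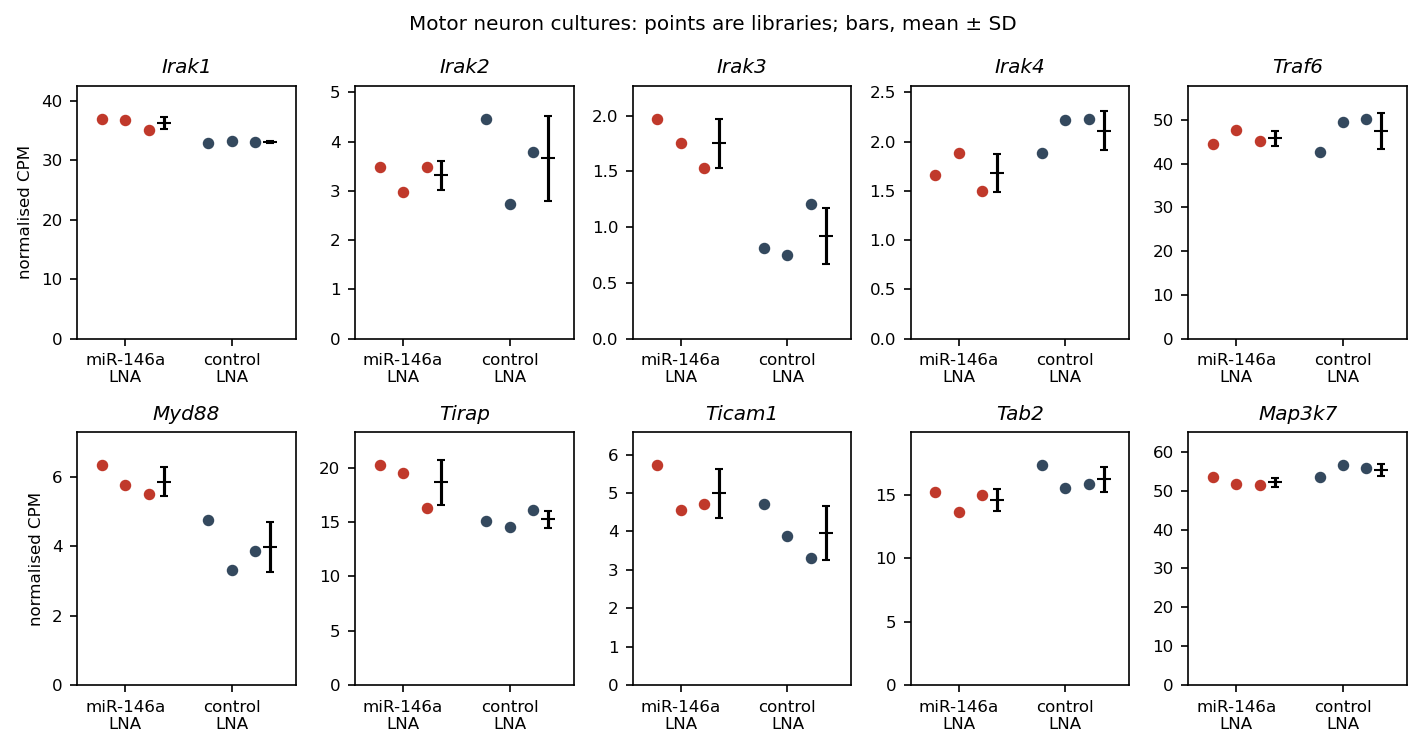
Normalised CPM of each gene in motor neuron cultures with miR-146a LNA (left) and control LNA (right), 1 point per library, with mean and SD (n = 3 each). The groups are apart for Irak1, Irak3, Myd88 and Tirap (above) and, narrowly, for Irak4, Tab2 and Map3k7 (below), and overlap for Irak2, Traf6 and Ticam1.

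The effect of the knockout in cords and of the LNA in cultures was compared directly, as the difference of both log2 fold changes in 1 fit over all 19 libraries. edgeR called none of the 10, where it called 1.75% of 24152 genes. Irak4 differed most, with a difference of 1.17 ± 0.40 (SE; 95% interval 0.34 to 2.00; unadjusted p = 0.00803, adjusted p = 0.161), its estimate being positive in cords and negative in cultures. DESeq2 gave an adjusted p of 0.0671 and limma 0.0994. Without the libraries labelled knockout replicates 7 and 9 the difference was 1.00, with an edgeR adjusted p of 0.0475, in a fit that called 4.08% of all genes. For the 9 others the difference ran from -0.13 to 0.32, with adjusted p-values of 0.431 to 1. Myd88, Irak3, Irak1, Tirap and Ticam1 had positive estimates in both materials. The difference was -0.06 (interval -0.88 to 0.77) for Myd88 and 0.17 (-1.14 to 1.49) for Irak3, intervals too wide to show that both effects were alike. It was 0.02 (-0.24 to 0.27) for Irak1, 0.003 (-0.48 to 0.49) for Tirap and -0.13 (-0.65 to 0.39) for Ticam1. Likeness of the effects was not tested for any gene.

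**Figure D5:**
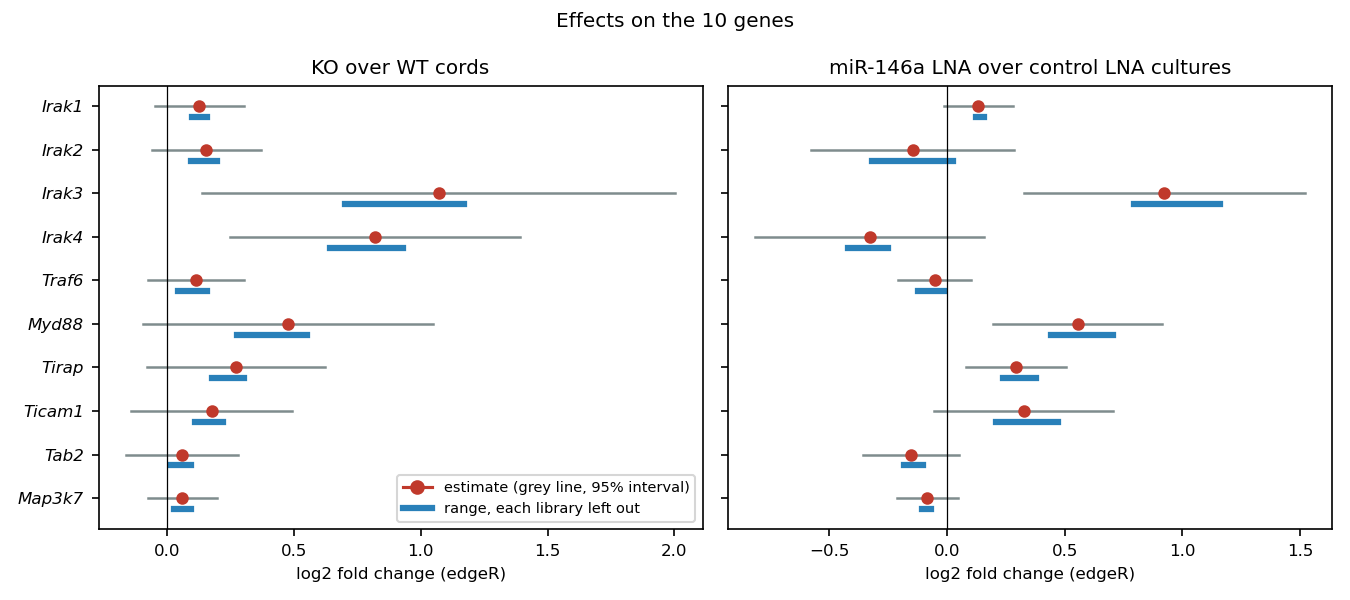
log2 fold change of each gene in knockout over wild-type cords (left) and in miR-146a LNA over control LNA cultures (right): red point, edgeR estimate; grey line, 95% interval; blue bar, range when each library in turn is left out. Irak3 and Irak4 in cords, and Irak3, Myd88 and Tirap in cultures, have intervals that leave out 0.

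The members without sites lie at chr10:120141648-120202130 (Irak3, minus), chr15:94543643-94581815 (Irak4, plus), chr9:119335934-119341411 (Myd88, minus), chr17:56269319-56276786 (Ticam1, minus), chr10:7905653-7956230 (Tab2, minus) and chr4:31964097-32023467 (Map3k7, plus). Several members share exonic bases with a gene on the opposite strand, and the strand setting of the counting is not given in the sources used here, so their counts are uncertain. Irak4 shares 395 bases with Twf1, an actin regulator, which had a log2 fold change of 0.05 in cords and fell by 0.28 in cultures (edgeR adjusted p = 0.0349). Myd88 shares 290 bases with Acaa1a, a peroxisomal thiolase, whose log2 fold change was -0.20 in cords (edgeR adjusted p = 0.292) and 0.12 in cultures (0.326). Irak3 shares 192 bases with Tmbim4, whose log2 fold change was -0.07 in cords and 0.23 in cultures (edgeR adjusted p = 0.143). Irak2 shares 196 bases with Gm43963, which had 0.198 to 1.33 normalised CPM in knockout cords and 0.255 to 0.818 in wild-type cords (log2 fold change 0.32, edgeR adjusted p = 0.786) and was too low to be tested in cultures. Tirap shares 446 bases with Gm39318 and 39 with Srpr, and Gm39318 was too low to be tested. Whether these overlaps moved the members' counts was not tested.

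Levels between genes were compared as TPM, which is scaled to gene length. In knockout cords the order was Tab2 (34.5 ± 5.12 TPM, SD, n = 9), Irak1 (33.6 ± 3.85), Map3k7 (29.4 ± 3.18), Irak2 (19.2 ± 2.19), Ticam1 (13.5 ± 2.87), Traf6 (12.2 ± 1.44), Myd88 (9.94 ± 4.38), Irak4 (5.09 ± 2.09), Irak3 (4.59 ± 3.37) and Tirap (3.55 ± 0.82). Neighbours in this order overlapped in range throughout, except Map3k7 and Irak2. In wild-type cords the first 7 places were the same, from Tab2 (31.8 ± 1.63 TPM, SD, n = 4) to Myd88 (6.87 ± 0.48), followed by Tirap (2.82 ± 0.13), Irak4 (2.77 ± 0.42) and Irak3 (2.10 ± 0.17). There the ranges overlapped for Tab2 and Irak1, Irak1 and Map3k7, Ticam1 and Traf6, and Tirap and Irak4. In the cultures the order was another one. Map3k7 led (30.7 ± 0.88 TPM with miR-146a LNA and 32.7 ± 0.92 with control LNA, SD, n = 3 each), followed in both groups by Irak1 (29.1 and 26.6), Traf6 (21.96 and 22.8), Tirap (14.3 and 11.7), Tab2 (9.003 and 10.0), Myd88 (8.62 and 5.87), Ticam1 (6.31 and 5.03) and Irak2 (2.84 and 3.14). Irak3 and Irak4 came last, in opposite order: 1.81 and 1.27 TPM with miR-146a LNA, and 0.952 and 1.59 TPM with control LNA, without overlap in range in either group. With miR-146a LNA the neighbours Map3k7 and Irak1, and Tab2 and Myd88, overlapped in range, and with control LNA only Myd88 and Ticam1 did.

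Within the Irak family, the composition of the RNA differed by material. Irak1 made up 54.2% ± 3.59 of the summed Irak TPM in knockout cords (SD, n = 9) and 58.0% ± 2.72 in wild-type cords (SD, n = 4), against 83.1% ± 0.54 with miR-146a LNA and 82.4% ± 2.07 with control LNA in cultures (SD, n = 3 each). Irak2 made up 31.0% in knockout cords and 32.4% in wild-type cords, and 8.12% with miR-146a LNA and 9.71% with control LNA. The share of Irak3, the brake, was 6.91% ± 3.39 in knockout cords and 4.13% ± 0.36 in wild-type cords, and 5.14% ± 0.50 with miR-146a LNA and 2.94% ± 0.75 with control LNA. Cord and culture libraries were not tested against each other.

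The rest of the pathway was read through 76 listed genes in 7 role classes. In cords 73 were tested, 52 with positive estimates, and their median log2 fold change was 0.25, against 0.02 over all genes. That median was 0.16 over 72 tested genes without knockout replicate 7 and 0.17 without replicates 7 and 9. edgeR called none (23 higher and 5 lower at an unadjusted p below 0.05), limma called Il18rap, and DESeq2 called 10, all higher, which is 13.7% of the 73, against 1.72% of all genes: the receptors Tlr1, Tlr7, Tlr8, Tlr9, Tlr13, Il1r1 and Il18rap, the transcription factor Irf5, and the NF-kB feedback genes Bcl3 and Tnfaip3. DESeq2 and limma were fitted with all cord libraries only. With edgeR, Il18rap stood at an unadjusted p below 0.05 with all libraries but not without knockout replicate 7. The receptors were the class with the largest estimates, with a median of 1.53 over 16 tested genes. Of these, 15 were positive and 11 stood at an unadjusted p below 0.05. Without replicate 7, 15 receptors were tested and 10 stood at that level. Without replicates 7 and 9 the median was 1.22 over 15 tested, with 13 positive and 10 higher at an unadjusted p below 0.05. In that fit 1929 of all 21573 genes were higher at that level. edgeR called 1 receptor, Il1r1, where it called 0.0371% of all genes. The TRAF6 and TAK1 partners stood at the other end, with a median of -0.03, 3 of 10 positive and none at an unadjusted p below 0.05.

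Il1r1, the signalling receptor for interleukin 1, averaged 9.65 ± 4.82 normalised CPM in knockout cords (SD, n = 9) and 2.69 ± 0.69 in wild-type cords (SD, n = 4), and all 9 knockout libraries lay above every wild-type library. The log2 fold change was 1.84 ± 0.37 (SE), with an adjusted p of 0.292 by edgeR and 6.69e-05 by DESeq2. Tlr7, a receptor for single-stranded RNA, averaged 5.25 ± 3.60 in knockout cords and 1.41 ± 0.37 in wild-type cords. Bcl3, an atypical NF-kB inhibitor, averaged 7.45 ± 6.24 in knockout cords and 1.75 ± 0.20 in wild-type cords, and Nfkb2 averaged 15.4 ± 9.15 and 8.41 ± 0.93. Tnfaip3 (A20), which removes ubiquitin chains from Traf6, averaged 9.74 ± 3.91 in knockout cords and 4.94 ± 1.496 in wild-type cords. Usp20, a deubiquitinase, went the other way, with 99.3 ± 8.29 in knockout cords and 114 ± 2.09 in wild-type cords and all 9 knockout libraries below every wild-type library (log2 fold change -0.20, edgeR adjusted p = 0.292). The 2 with the smallest p in the other classes were Pik3ap1 (log2 fold change 1.98) and Ticam2 (1.51) among adaptor regulators, Ripk1 (0.59) and Irf5 (1.21) in the Ticam1 branch, Map2k4 (-0.16) and Mapk9 (-0.15) among the kinases, and Rbck1 (-0.10) and Tifa (0.52) among the Traf6 and Map3k7 partners. Without replicates 7 and 9 the log2 fold change was 1.71 for Il1r1, 1.87 for Tlr7, 1.80 for Bcl3, 0.67 for Nfkb2, 0.97 for Tnfaip3, -0.14 for Usp20, 1.47 for Pik3ap1, 1.34 for Ticam2, 0.49 for Ripk1, 1.07 for Irf5, -0.12 for Map2k4, -0.10 for Mapk9, -0.064 for Rbck1 and 0.46 for Tifa.

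In the cultures 63 of the 76 were tested, 26 with positive estimates and a median of -0.03, against 0.01 over all genes. edgeR called 6, which is 9.52%, against 8.56% of all genes. Il1r1 rose, with 2.61 ± 0.38 normalised CPM with miR-146a LNA and 1.29 ± 0.17 with control LNA (SD, n = 3 each; log2 fold change 1.01, edgeR adjusted p = 0.0115). Ripk3, a kinase of necroptosis, rose by 1.40 on the log2 scale at a low level (1.30 and 0.489 normalised CPM; edgeR adjusted p = 0.0329), and Map2k6, an activator of p38 kinases, rose by 0.45 (15.5 and 11.3; edgeR adjusted p = 0.0246). Mapk14, p38 alpha itself, fell to 40.8 ± 3.46 normalised CPM with miR-146a LNA, against 61.3 ± 0.57 with control LNA (log2 fold change -0.59, edgeR adjusted p = 4.51e-05), and was the 1 listed gene called in every fit that left out 1 culture. Tlr5, the flagellin receptor, fell by 0.87 (edgeR adjusted p = 0.0369), and Usp4, a deubiquitinase, fell by 0.17 (edgeR adjusted p = 0.0368). All 8 tested brakes on Traf6 signalling had negative estimates, with a median of -0.12, and Usp4 alone was called. Leaving out 1 culture gave 1 to 7 calls. In the classes with none called, Sarm1 (-0.15), Peli1 (-0.09), Tifa (0.57), Sharpin (0.06), Nfkbib (-0.14) and Relb (0.41) had the smallest p.

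Across all genes, those with an 8mer for miR-146a-5p had a median log2 fold change of 0.03 in cords (763 genes) and those with no site a median of 0.00 (12255 genes). In cultures the medians were -0.06 for genes with an 8mer (723 genes, of which edgeR called 11 higher and 109 lower) and 0.00 for genes with none (11155 genes, 354 higher and 738 lower). Genes with an 8mer had longer 3′ UTRs, with median lengths of 2656 bases in the cord set and 2713 bases in the culture set, against 910 and 945 bases for genes without a site, and the part of UTR length in these medians was not tested.

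By likeness of log2 level over the 13 cord libraries, the closest genes to Irak3 were Heg1 (Pearson r = 0.984, and 0.963 over 11 libraries without replicates 7 and 9), Rac2 (0.977, 0.954) and Susd6 (0.973, 0.930). Those closest to Irak4 were Dock8 (0.972, 0.943), Abca1 (0.963, 0.928) and Atp7a (0.962, 0.926), and those closest to Myd88 were Sp100 (0.960, 0.966), Itgb1 (0.957, 0.856) and Fam111a (0.955, 0.910). Irak1 was closest to Ifih1 (0.973, 0.970), Slc44a2 (0.972, 0.960) and Sulf1 (0.969, 0.954). Rac2 and Dock8 are best known from blood cells, and Ifih1 is a sensor of viral RNA. Ticam1 was closest to S1pr2 (0.965, 0.947), Prcp (0.953, 0.910) and Snx5 (0.953, 0.944), and Tab2 to Orai1 (0.948, 0.907), Ptges (0.938, 0.873) and Tdgf1 (0.937, 0.921). Map3k7 was closest to Sorl1 (0.961, 0.896), Cdk13 (0.946, 0.852) and Mprip (0.941, 0.842), and Traf6 to Picalm (0.934, 0.883), Gm28875 (0.916, 0.931) and Lrrc58 (0.915, 0.854). Tirap was closest to Kremen1 (0.924, 0.792), Vangl1 (0.921, 0.774) and Fam160a1 (0.914, 0.709), and Irak2 to Gm8623 (0.891, 0.857), Ccrl2 (0.884, 0.888) and Rps16-ps2 (0.882, 0.873). Among the members themselves, the closest pairs were Irak1 with Myd88 (0.935, 0.888), Irak4 with Myd88 (0.924, 0.867) and Irak3 with Irak4 (0.901, 0.810), and the least alike were Tab2 and Map3k7 (0.317, -0.041). These values describe libraries that share their depth and cell composition and have no test.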

How the data were processed

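RNA of 13 spinal cord and 6 culture libraries was analysed. Per the labels' protocols and design notes, ribosomal RNA was removed and paired reads were sequenced. STAR 2.7.9a1 and featureCounts were used on GRCm38, per the submitters' processing notes, and the strand setting is not given in the sources used here. The authors deposited whole-number counts of uniquely aligned reads per gene, which every test used. The CPM the authors deposited are counts relative to each library's total and gave the marker sums. The TPM the authors deposited gave levels between genes, and the FPKM the authors deposited were only checked for their unit. Symbols came from a reference list of gene names, which named 99.4% of genes. The 3′ UTRs came from GENCODE M21, which gave all 10 members the same positions as the deposited data.

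Libraries were grouped by genotype or LNA label. Each comparison was fitted with edgeR 4.0.16 (R 4.3.3), using its robust quasi-likelihood test over all genes that passed filterByExpr, with TMM scaling, Benjamini-Hochberg adjustment over all genes tested and a threshold of 0.05. Normalised CPM are TMM-scaled, and intervals use the SE and the test's degrees of freedom. Correlations between genes used log2 normalised CPM with a prior count of 2. Correlations with marker sums used log2 normalised CPM and the log2 of the summed deposited CPM, without a prior count. Alternatives were limma 3.58.1 (voom, quality weights), sva 3.50.0, DESeq2 1.42.0, other scalings and filters, a sex term, a replicate block and leaving out libraries. Scripts were tested on simulated data. Total counts make 3 counts worth 0.0758 to 0.1065 CPM in cords, which covers counting error only. No replicate libraries agreed to within sampling noise (smallest chi-square per degree of freedom 6.34).

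The members, lists and tests were chosen with earlier results of these data known. All members are named, and of the listed pathway genes those called (up to 4 a class) or else the 2 with the smallest p and at least 1 normalised CPM, and the 3 genes most correlated with each member.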

Additional observations from a re-analysis of the deposited data

Results flagged for a closer look

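In knockout cords, replicate 7 lay far above the other 8 libraries for 4 of the 10 genes, by the gap to its nearest neighbour relative to the whole range. It had 15.2 normalised CPM of Irak3, 15.8 of Irak4, 16.8 of Myd88 and 8.54 of Tirap, against next highest values of 5.78, 9.83, 9.22 and 6.45 in other knockout libraries. These 4 come from 20 gene and group pairs of cords, where chance flags about 1 in 20. All 4 are in 1 library and the genes vary together across cords (r = 0.924 for Irak4 and Myd88, 0.901 for Irak3 and Irak4), so the pairs are not independent and the number of flags says little. The same library held 5349 CPM of skeletal muscle genes and the highest microglia marker sum (2159 CPM), whose part in these 4 values was not tested.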

How the results depend on the processing

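In cords, each of the 23 alternatives called none of the 10 genes. Irak2, Irak3, Irak4 and Tirap had positive estimates under all of them. With 2 surrogate variables the log2 fold changes of 6 genes turned negative: Irak1 -0.013, Traf6 -0.024, Myd88 -0.033, Ticam1 -0.071, Tab2 -0.12 and Map3k7 -0.022. The same fit left Irak3 at 0.29 and Irak4 at 0.31, and the cause was not tested. In cultures, where edgeR called none, calls among the 10 numbered 2 with RLE size factors (8.57% of all genes called in that fit), 3 with total counts only (8.23%), 2 without a filter (6.36%), 2 with a filter of 1 CPM (11.5%), 3 with DESeq2 (11.4%), 3 with limma (11.8%), and 0 to 3 when each library was left out (3.89% to 10.1%), with 3 without miR-146a LNA replicate 3 (10.1%), 1 without control replicate 1 (5.36%) and 1 without control replicate 3 (5.58%). The calls were of Irak3, Myd88 or Tirap, all higher. Irak2 in cultures ran from -0.32 to 0.025 when each library was left out. The replicate block of the cultures gave 1 call, Myd88 (edgeR adjusted p = 0.0375), in a fit that called 9.39% of all genes. Deviations of same-numbered cultures correlated at 0.00978, -0.0501 and 0.00568. These values show no sign of pairing but cannot exclude it, and the labels do not say whether the numbers pair the cultures. The difference between cord and culture effects gave 1 call without knockout replicates 7 and 9, Irak4 (1.00), where 4.08% of all genes were called, against 1.75% with all libraries. Calls among the pathway genes in cords numbered 10 with DESeq2 (1.72% of all genes called in that fit) and 1 with limma (0.0135%). They numbered 1 without replicates 7 and 9 (0.0371%), and 0 when each library was left out. In cultures they numbered 1 to 7 when each library was left out, against 6. Members with sites numbered 4 over any annotated 3′ UTR, 4 over the longest and 3 with 8mers only. Irak3 and Irak4 had the fewest counts among the 10 in cultures, 41 to 124 a library.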
